A study of Mus musculus with 6 samples.

Results

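The genes described here are 10 transcriptional targets of the tumour suppressor p53 in mouse liver, measured by RNA sequencing in livers with and without a hepatocyte deletion of the autophagy gene Atg14. They were taken by name (Cdkn1a, Mdm2, Ccng1, Plk2, Phlda3, Zmat3, Eda2r, Bax, Bbc3 and Trp53inp1) from a table of 56350 genes, and all 10 were among the 16051 genes that passed the filter on low counts. There were 3 wild-type libraries (WT) and 3 libraries of Atg14 hepatocyte-specific knockout liver (HepKO), each made from polyA RNA of whole liver tissue. The labels give no age, sex, diet, strain or Cre driver. Nor do they tie the libraries of a group to separate mice, and a p-value here speaks only of the spread among these 6 libraries, part of which may be technical.

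p53 is a DNA-binding protein that is kept scarce in unstressed cells by the ubiquitin ligase MDM2 and accumulates after DNA damage and other stresses. It binds DNA as a tetramer, at paired copies of a short palindromic motif, and raises transcription of genes for cell cycle arrest, DNA repair, cell death and its own restraint. In hepatocytes, p21, the product of Cdkn1a, is known as a brake on division during regeneration. The protein itself was not measured here, and mRNA levels of targets are not a reading of p53 alone, since other factors act on the same genes.

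The p53 motif could be seen directly in front of several of these genes. Promoter windows from RefSeq (GRCm38.p6) were at hand for 8 of the 10 genes, in 11 windows, and Zmat3 and Trp53inp1 were not among them. The 250 bases before each annotated start were searched for the p53 half-site consensus, 10 bases that read alike on both strands, and for 2 copies of it side by side. A perfect half-site was found for 4 of the 8 genes (Cdkn1a, Mdm2, Ccng1 and Bax), against 8.20% of all 27025 genes with a window, and in 4 of their 11 windows, against 7.13% of all 32851 windows. A double site that matched the consensus in at least 17 of 20 positions, with the C and G of each core kept, was found for Cdkn1a, Ccng1 and Bbc3, and 1.14% of all windows held one. The minimum of 17 was set after half-sites in these windows had been seen. The stretches that hold a half-site or double site are shown because they carry letters of the motif that p53 is known to recognise. They are printed 5′ to 3′ on the strand of the gene. All bases of a half-site or double site are in capitals, also those that miss the consensus, and the rest are in lower case.
Cdkn1a, chr17:29090886-29090967, plus strand: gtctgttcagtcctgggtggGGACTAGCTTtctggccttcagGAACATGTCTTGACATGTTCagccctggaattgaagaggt
Ccng1, chr11:40755442-40755501, minus strand: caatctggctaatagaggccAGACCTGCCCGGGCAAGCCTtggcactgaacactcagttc
Bbc3, chr7:16309466-16309525, plus strand: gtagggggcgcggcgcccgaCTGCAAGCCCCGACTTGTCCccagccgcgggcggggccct
Bax, chr7:45467070-45467119, minus strand: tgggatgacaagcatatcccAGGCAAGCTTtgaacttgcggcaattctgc
Mdm2, chr10:117710915-117710964, minus strand: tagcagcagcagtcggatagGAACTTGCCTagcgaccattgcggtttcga

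The double sites of Cdkn1a and Ccng1 matched 19 of 20 positions, which 19 of all 32851 windows did (0.0578%), and that of Bbc3 matched 17. The Bax and Mdm2 stretches hold a lone half-site. In their windows the best double-site match was 13 and 11 of 20 positions, against 15 for Phlda3, 14 for Plk2 and 11 for Eda2r. In Cdkn1a the double site began 51 bases before the first annotated start and 2841 bases before the second, and another half-site stood just in front of it. None of the printed stretches overlapped an annotated exon in GENCODE M21. The Bbc3 stretch lay within the gene, in an intron of a transcript that starts further upstream, and the Bax stretch within the span of Gm45808, an annotated gene on the same strand. No perfect half-site was found in the windows of Plk2, Phlda3 or Eda2r, which says only that the letters were not in those 250 bases. The known p53 response element of Mdm2 lies in its first intron, which the window did not cover. A match is a description of the sequence, and binding was not measured.

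Library totals ranged from 33145684 to 48951937 counts. Atg14, the targeted gene, had 20.9, 22.2 and 21.05 CPM (counts scaled to a common library size) in WT replicates 1 to 3 and 5.66, 8.45 and 7.95 CPM in HepKO replicates 1 to 3, so the groups did not overlap. HepKO replicate 1 stood apart from the other 5 libraries. It had 30377 counts of Xist, the RNA of the inactive X chromosome, where the others had 2 to 22, and 3 to 6 counts of each of the Y-linked genes Ddx3y, Eif2s3y, Kdm5d and Uty, where the others had 571 to 3482. This is the pattern of a female animal among males, so results are also given without that library. All CPM values use trimmed mean of M-values (TMM) factors. With TMM the median log2 fold change of all tested genes was 0.01, and with plain library totals it was 0.52, and folds are read against that median.

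Of the 10 genes, 8 rose in HepKO and 0 fell, by edgeR's quasi-likelihood test with an FDR (p adjusted by Benjamini and Hochberg's method over all 16051 tested genes) below 0.05. Of all tested genes, 19.5% were called higher and 18.7% lower, 38.2% in all. Every HepKO library lay above every WT library for 9 of the 10 genes and below for 0, where 27.1% and 26.4% of tested genes showed those arrangements. The median log2 fold change of the 10 was 1.21, and their folds ran from 0.29 to 2.77 on the log2 scale. Without HepKO replicate 1, the same count of 8 rose and 0 fell, with a median of 1.19, against 16.3% of tested genes called higher and 17.5% lower in that fit. Under library totals 9 rose and 0 fell with a median of 1.71, against 46.4% of tested genes called higher and 5.84% lower. DESeq2 and limma-voom called 9 higher and 0 lower each, Bbc3 being the addition.

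**Figure D1:**
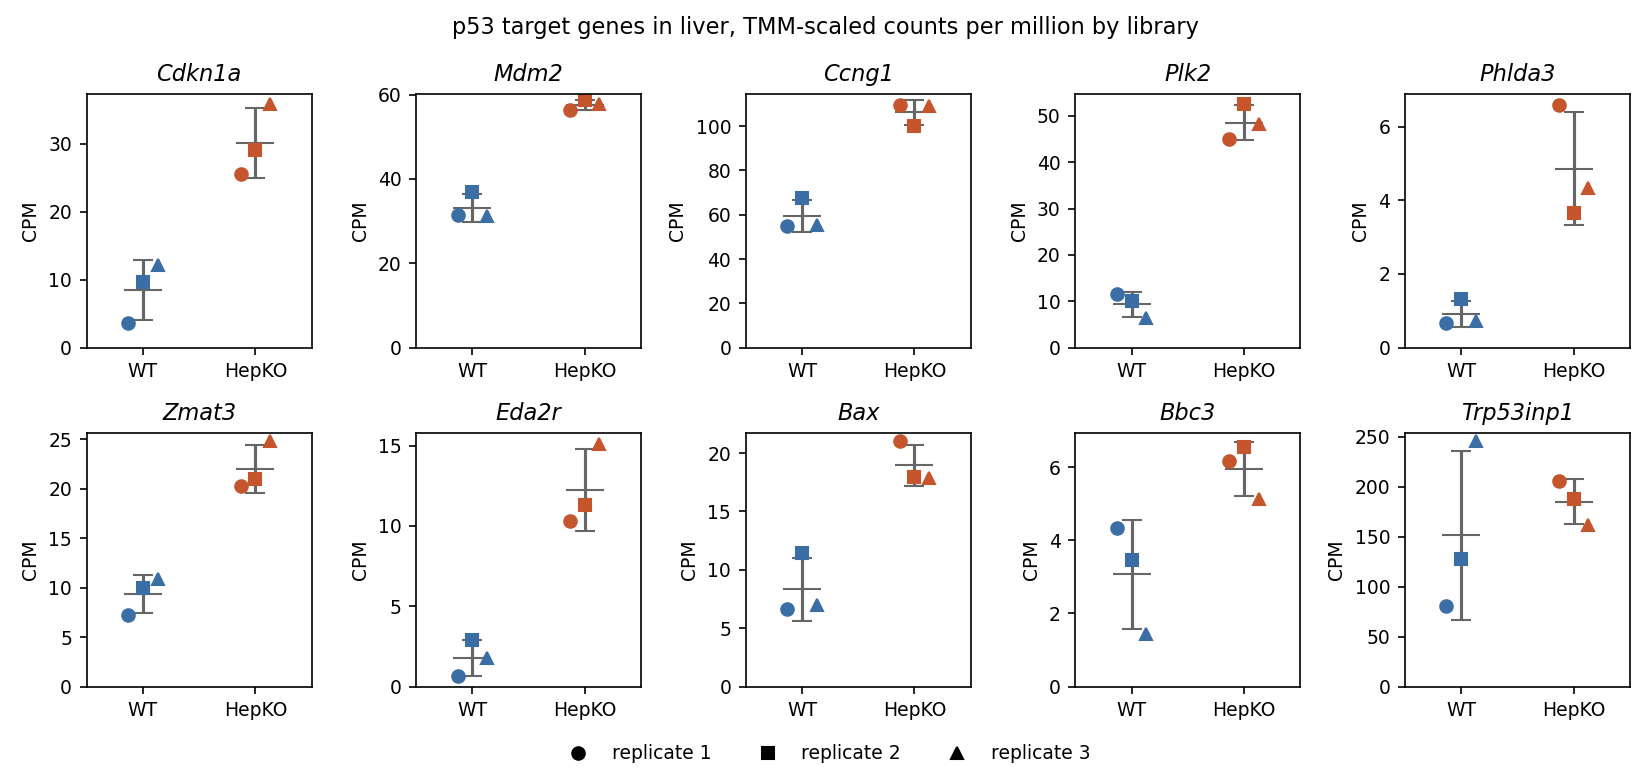
TMM-scaled CPM (y axis, linear, from 0) of the 10 genes in each WT (blue) and HepKO (orange) library, with a symbol for each replicate number and the mean ± SD of 3 libraries in grey. Every HepKO point lies above every WT point in 9 panels, and Trp53inp1 is the panel in which the groups overlap.

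The 4 genes of growth arrest and survival signalling all rose, and Plk2 among them had the widest gap between groups. Cdkn1a, which encodes the cyclin-dependent kinase inhibitor p21, is on chromosome 17 (ENSMUSG00000023067.14, 29090976 to 29100727, plus strand). It had 3.62, 9.61 and 12.1 CPM in WT replicates 1 to 3 and 25.6, 29.0 and 35.8 CPM in HepKO replicates 1 to 3. The lowest HepKO library was 2.10 times the highest WT library. The SD was 4.38 CPM in WT and 5.19 CPM in HepKO. Relative to the mean the spread was larger in WT, where replicate 1 was low (coefficient of variation 51.8% against 17.2%). The rise was 3.55-fold (log2 fold change 1.83 ± 0.38 SE, FDR 0.00695), and leaving out HepKO replicate 1 gave 1.92 on the log2 scale (FDR 0.0113). Its exons share 273 of 3553 bases with AC167363.2 on the opposite strand, which had 0 to 6 counts in a library.

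Plk2, a polo-like kinase that takes part in centriole duplication and stress checkpoints, had the smallest FDR of the 10. On chromosome 13 (ENSMUSG00000021701.8, 110395046 to 110400844, plus strand), it had 11.6, 10.03 and 6.44 CPM in WT and 45.0, 52.5 and 48.2 CPM in HepKO. The gap between the groups was 3.88-fold, wider than for any other of the 10 genes. Its mean rose from 9.35 ± 2.64 to 48.6 ± 3.79 CPM (SD, n = 3 each; log2 fold change 2.38 ± 0.21 SE, FDR 2.18e-04).

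Phlda3, a pleckstrin homology domain protein that restrains AKT, was scarce in WT, at 0.676, 1.31 and 0.732 CPM (20, 47 and 25 counts). In HepKO it had 6.59, 3.66 and 4.32 CPM, with replicate 1 the highest. Its log2 fold change of 2.41 ± 0.37 SE (FDR 0.00195) became 2.12 without HepKO replicate 1 (FDR 0.00571). Zmat3, a zinc finger protein that binds RNA, measured 7.23, 10.002 and 10.9 CPM in WT libraries, then 20.3, 20.98 and 24.8 CPM in HepKO ones. Zmat3 rose 2.35-fold (log2 fold change 1.23 ± 0.17 SE, FDR 0.00131), with a gap of 1.87-fold between the groups. Phlda3 lies on chromosome 1 (ENSMUSG00000041801.5, 135766119 to 135769136, plus strand) and Zmat3 on chromosome 3 (ENSMUSG00000027663.12, 32334792 to 32366014, minus strand).

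The genes of the feedback on p53 rose by the smallest folds among those called, and with the least spread relative to their means. Mdm2, the ubiquitin ligase that marks p53 for destruction, was at 31.4, 37.0 and 31.1 CPM in WT replicates 1 to 3, and HepKO replicates were at 56.3, 58.8 and 57.7 CPM, all above them. The coefficient of variation was 9.99% in WT and 2.18% in HepKO, the smallest of the 10 genes in both groups. Mdm2 rose 1.74-fold (log2 fold change 0.80 ± 0.10 SE, FDR 8.79e-04). Ccng1, cyclin G1, which brings the phosphatase PP2A to MDM2, had 55.0, 67.7 and 55.4 CPM in WT and 109.7, 99.9 and 109.1 CPM in HepKO. Ccng1 rose 1.79-fold (log2 fold change 0.84 ± 0.11 SE, FDR 0.00107), and the groups were 1.48-fold apart at their nearest libraries. Mdm2 is on chromosome 10 (ENSMUSG00000020184.15, 117688875 to 117710758) and Ccng1 on chromosome 11 (ENSMUSG00000020326.7, 40748552 to 40755311), both on the minus strand.

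Of the genes of cell death, Eda2r and Bax rose and Bbc3 did not pass the test. Eda2r, a tumour necrosis factor receptor family member that binds the A2 form of ectodysplasin, had the largest fitted fold of the 10 genes, though on the log2 scale those of Phlda3 and Plk2 lay within its SE. On the X chromosome (ENSMUSG00000034457.10, 97333840 to 97377216, minus strand), it had 0.642, 2.93 and 1.76 CPM in WT (19, 105 and 60 counts) and 10.3, 11.3 and 15.1 CPM in HepKO. The rise was 6.81-fold (log2 fold change 2.77 ± 0.45 SE, FDR 0.00253). HepKO replicate 1, the library with Xist, was the lowest of the 3 HepKO libraries for this X-linked gene, and leaving it out gave 2.87 on the log2 scale (FDR 0.00476).

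Bax, which forms pores in the outer mitochondrial membrane, had 6.62, 11.5 and 6.97 CPM in WT and 20.99, 17.9 and 17.9 CPM in HepKO, with WT replicate 2 the nearest to the HepKO libraries. It lies on chromosome 7 (ENSMUSG00000003873.11, 45461697 to 45466898, minus strand) and rose 2.27-fold (log2 fold change 1.18 ± 0.22 SE, FDR 0.00428). Its exons share 192 of 1576 bases with Gm45808 on the same strand, which had 0 to 11 counts in a library. Bbc3 encodes PUMA, a BH3-only protein that frees and activates BAX, and is also on chromosome 7 (ENSMUSG00000002083.13, 16308393 to 16318205, plus strand). It had 4.32, 3.45 and 1.43 CPM in WT and 6.16, 6.55 and 5.13 CPM in HepKO, so the groups did not overlap, with nearest libraries 1.19-fold apart. The log2 fold change of Bbc3 was 0.96 ± 0.37 SE and its FDR 0.0754. Bbc3 was called with DESeq2 (adjusted p = 0.0253), limma-voom (0.0357), no filter on low counts (0.0167), library totals (0.0131) and without WT replicate 1 (0.0452), and without WT replicate 3, its lowest library, the log2 fold change was 0.64 (adjusted p = 0.0851).

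Trp53inp1, a stress protein of the nucleus and of autophagosomes, was the one gene of the 10 whose groups overlapped. On chromosome 4 (ENSMUSG00000028211.11, 11156431 to 11174379, plus strand), it had 81.2, 127.7 and 245.5 CPM in WT and 206.0, 187.7 and 161.7 CPM in HepKO. WT replicate 3 was the highest of all 6 libraries and WT replicate 1 the lowest. Means of 152 ± 84.7 CPM for WT and 185 ± 22.3 CPM for HepKO (SD, n = 3 each) differed by less than the WT SD, and the log2 fold change was 0.29 ± 0.35 SE (FDR 0.552). The result rested on single WT libraries: the log2 fold change was 0.84 and called without WT replicate 3 (adjusted p = 0.0321), and -0.01 without WT replicate 1 (adjusted p = 0.976).

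**Figure D2:**
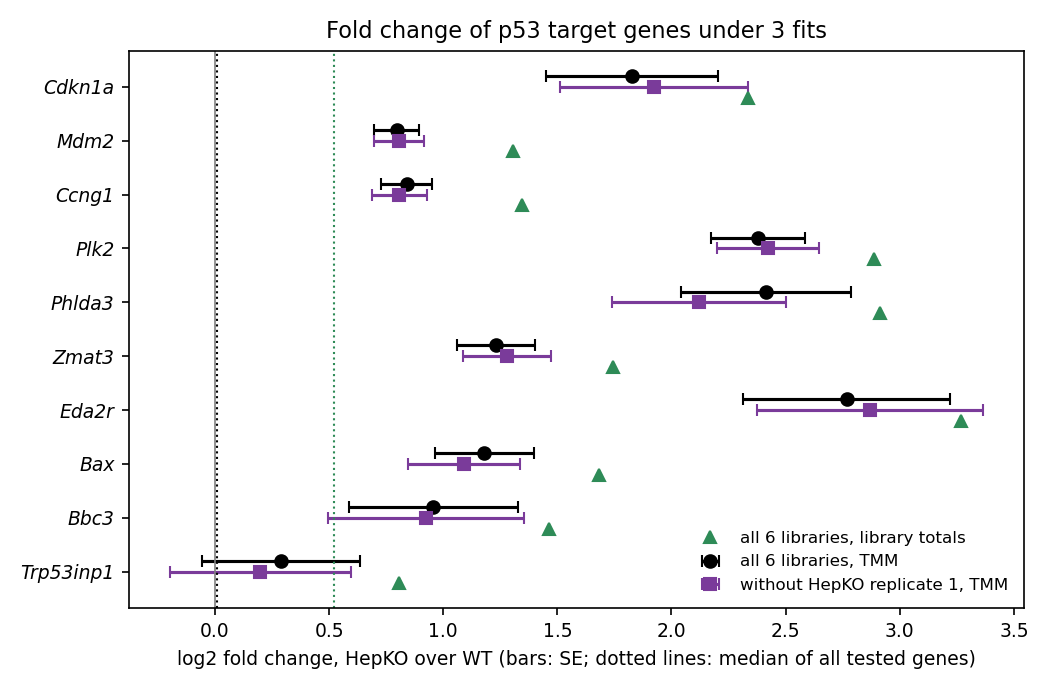
Log2 fold change of HepKO over WT (x axis) for the 10 genes, from all 6 libraries with TMM (black, ± SE), without HepKO replicate 1 (purple, ± SE) and with library totals (green), with dotted lines at the median of all tested genes. The black and purple points lie within an SE of each other for all 10 genes, and the green points are shifted up by about the shift of all genes, from 0.01 to 0.52.

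Relative to the mean, the spread of these genes was larger within WT than within HepKO. The coefficient of variation was larger in WT for 10 of the 10 genes, against 51.5% of 16016 tested genes with a value in both groups, and for Cdkn1a it was 51.8% against 17.2%. WT replicate 1 was the lowest of all 6 libraries for 7 of the genes and WT replicate 3 for the other 3. Within HepKO no library was high throughout: replicate 1 was highest for 4 genes, and replicates 2 and 3 for 3 genes each. The median over the 10 genes of the log2 ratio to the WT mean was 1.26, 1.21 and 1.29 in HepKO replicates 1 to 3, and -0.32, 0.25 and -0.09 in WT. Low counts add counting error, and Eda2r (19 to 105 counts) and Phlda3 (20 to 47) had few in WT. All tested genes include those that fell, so they are not a like background for genes that rose. With 3 libraries a group, these spreads are described and not tested.

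**Figure D3:**
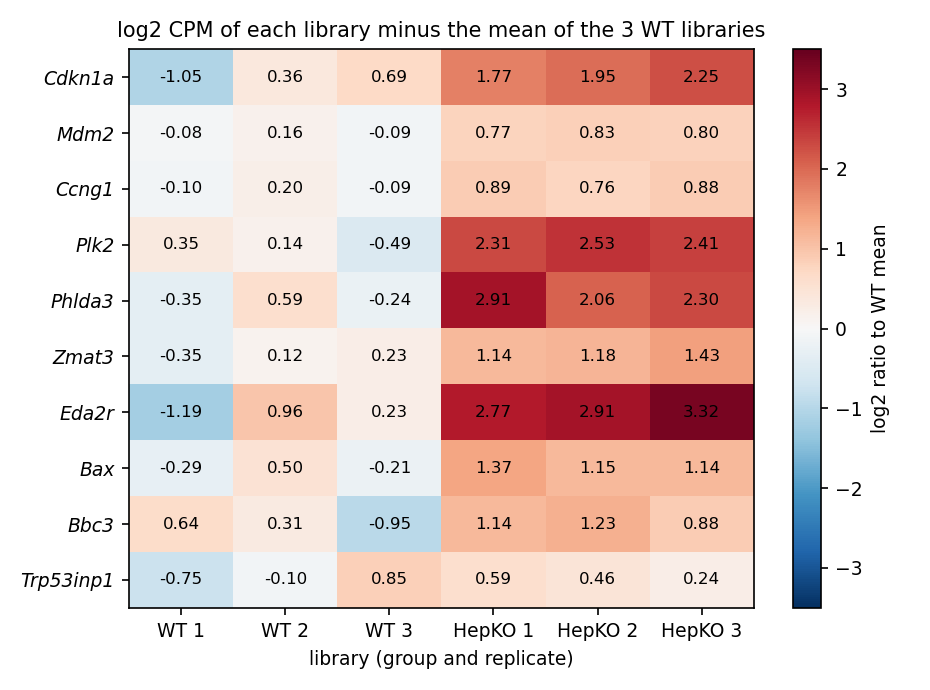
Log2 CPM of each library minus the mean log2 CPM of the 3 WT libraries, for the 10 genes (rows) in the 6 libraries (columns), with red for values above that mean and blue for values below. The HepKO columns are red in every row, palest for Trp53inp1 (0.24 to 0.59), and the WT columns mix both colours, with WT replicate 1 at -1.05 for Cdkn1a and -1.19 for Eda2r.

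Levels were compared between genes only per length, as CPM per kilobase of annotated exon. In WT, Trp53inp1 (23.4 ± 13.1) and Ccng1 (16.9 ± 2.05) were the most abundant, followed by Mdm2 (6.52 ± 0.652), Bax (5.30 ± 1.71), Cdkn1a (2.38 ± 1.23), Plk2 (2.08 ± 0.588), Bbc3 (1.45 ± 0.698), Zmat3 (0.819 ± 0.166), Phlda3 (0.581 ± 0.225) and Eda2r (0.301 ± 0.194; all CPM per kilobase, SD, n = 3). Neighbours in that order overlapped between libraries, except that Ccng1 lay above Mdm2, and Bax above Cdkn1a, in all WT libraries. In HepKO, Ccng1 (30.3 ± 1.57) and Trp53inp1 (28.6 ± 3.44) again led, and Eda2r (2.08 ± 0.429) and Zmat3 (1.93 ± 0.213) were lowest. Plk2 (10.8 ± 0.844) overlapped with Mdm2 (11.3 ± 0.247) in HepKO, and Mdm2 with Bax (12.0 ± 1.13). Eda2r and Phlda3 had the lowest mean levels per kilobase in WT.

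The 5 genes whose profile over the 6 libraries was most like that of Cdkn1a were Limk1, Rhbg, Phf11d, Isyna1 and Ces2c. Likeness was the Euclidean distance between log2 CPM profiles centred on their own means, among 9394 genes whose 6 libraries averaged 5 CPM or more, and the 5 had distances of 0.563 to 0.703. Limk1, Rhbg, Phf11d and Isyna1 had WT means under 5 CPM and passed that minimum through their HepKO levels. Limk1, a kinase of the actin regulator cofilin, had 1.99, 4.99 and 6.03 CPM in WT and 10.7, 14.3 and 12.3 CPM in HepKO. All 5 shared the low WT replicate 1 and the rise in HepKO of Cdkn1a, as the choice by likeness over these libraries fixes, so their values are a description. Among the other 9 targets Zmat3 was nearest to Cdkn1a, at 1.26 with 88 genes nearer, and Bbc3 farthest, at 2.66 with 2927 genes nearer. The log2 fold change was 1.51 for Limk1, 1.74 for the ammonium transporter Rhbg, 1.91 for Phf11d, 2.30 for the inositol synthase Isyna1 and 1.36 for the carboxylesterase Ces2c. The call of Ces2c (FDR 0.0436) ended with DESeq2 (adjusted p = 0.0540) and without WT replicate 2 or any single HepKO library (0.0833 to 0.0934).

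The mRNA of p53 itself rose. Trp53, which encodes p53, had 15.001, 13.7 and 13.7 CPM in WT and 24.5, 24.3 and 27.5 CPM in HepKO (log2 fold change 0.84 ± 0.10 SE, FDR 8.42e-04). In the list of the p53 family and its regulators, 3 of 17 tested genes rose (Trp53, Chek1 and the acetyltransferase gene Kat5) and 4 fell (Cop1, Mdm4, Ep300 and Usp7; median -0.14), counts near the shares of 19.5% and 18.7% among all tested genes. Cop1, a ubiquitin ligase for p53, fell from 64.7 ± 1.54 to 35.3 ± 2.67 CPM (SD, n = 3 each; log2 fold change -0.88 ± 0.09 SE, FDR 4.58e-04). The checkpoint kinase Chek1 rose from 0.481 ± 0.248 to 2.32 ± 0.323 CPM (log2 fold change 2.25 ± 0.44 SE, FDR 0.00548). Mdm4, the MDM2 partner, fell slightly (log2 fold change -0.34 ± 0.09 SE, FDR 0.0206). With library totals Mdm4 was at 0.17 (adjusted p = 0.153), Ep300 at 0.14 and Usp7 at 0.15. These values are positive but below the median of 0.52 for all tested genes in that fit. Under library totals 7 of the 17 were higher and Cop1 alone was lower, and the count of 4 falls was 1 without WT replicate 2, WT replicate 3 or HepKO replicate 3. The p53 relatives Trp63 and Trp73, and Cdkn2a, which encodes ARF, were too low to test.

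Other p53 targets were taken from lists by function. The counts stand beside shares of 19.5% higher and 18.7% lower among all tested genes, and of 46.4% and 5.84% under library totals. In growth arrest and signalling, 9 of 14 tested genes rose and 1, the small GTPase gene Rap2a, fell (log2 fold change -0.87, FDR 0.00709; list median 1.28). Under library totals 12 were higher and 0 lower, and Rap2a was at -0.36 (adjusted p = 0.132). Sfn, the 14-3-3 protein sigma, rose from 0.688 ± 0.249 to 4.59 ± 0.710 CPM (FDR 8.73e-04), the growth factor gene Tgfa from 21.5 ± 2.14 to 56.2 ± 2.61 CPM (FDR 1.49e-04), and Psrc1, a spindle protein gene, from 0.0669 ± 0.0603 to 4.26 ± 0.211 CPM (FDR 3.17e-04; SD, n = 3 each). Psrc1 had 0, 3 and 4 counts in the WT libraries, and its log2 fold change of 5.87 was 6.48 without WT replicate 3. Without HepKO replicate 1 the list had 6 higher, and Btg2, Gdf15 and Ptp4a3 were no longer called (adjusted p = 0.0549, 0.0564 and 0.0645).

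In the cell death list 6 of 14 rose and 2 fell (median 0.30). Apaf1, the scaffold of the apoptosome, had a log2 fold change of 1.83 ± 0.25 SE (FDR 0.00126), Pmaip1, the BH3-only protein NOXA, of 2.24 ± 0.32 (FDR 0.00139), and the death receptor gene Tnfrsf10b of 2.48 ± 0.35 (FDR 0.00145). The genes that fell were Perp and Ei24, and neither was called under library totals (adjusted p = 0.287 and 0.427). In that fit the log2 fold change of Ei24 was 0.11, below the median of 0.52 for all tested genes. The count of 2 falls was 1 in 5 of the 6 fits that left out a library, all but that without HepKO replicate 1. In the metabolism and autophagy list 6 of 16 rose and 4 fell (median -0.01, and 0.51 under library totals). Lpin1, a phosphatidate phosphatase, fell from 375 ± 84.6 to 52.1 ± 8.49 CPM (log2 fold change -2.85 ± 0.20 SE, FDR 1.31e-04), whereas Ddit4l, an inhibitor of mTOR signalling, rose from 1.09 ± 0.599 to 19.5 ± 5.0002 CPM (log2 fold change 4.18 ± 0.42 SE, FDR 3.66e-04). Crip2, a LIM domain protein gene, rose as well (log2 fold change 1.10 ± 0.13 SE, FDR 6.63e-04). The other genes that fell were the cytochrome c oxidase assembly gene Sco2 (log2 fold change -1.08, FDR 0.0103), the glutaminase gene Gls2 (-0.84, FDR 0.0126) and the thiamine transporter gene Slc19a2 (-0.62, FDR 0.0148). Under library totals these 3 were not called (adjusted p = 0.0835, 0.188 and 0.568), which left Lpin1 as the 1 fall.

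Against 19.5% and 18.7% of all tested genes called higher and lower, 2 of 12 DNA repair targets rose and 0 fell (median 0.23). They were Apex1, the abasic site endonuclease (log2 fold change 0.52 ± 0.12 SE, FDR 0.0112), and Polk, a lesion bypass polymerase (0.55 ± 0.16 SE, FDR 0.0294), and the damage sensor Xpc was not called (0.32 ± 0.12 SE, FDR 0.0663). Polk lost its call without WT replicate 3 or any single HepKO library (adjusted p = 0.0617 to 0.0810), which left 1 gene. Under library totals 10 of the 12 were higher, where 46.4% of all tested genes were.

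**Figure D4:**
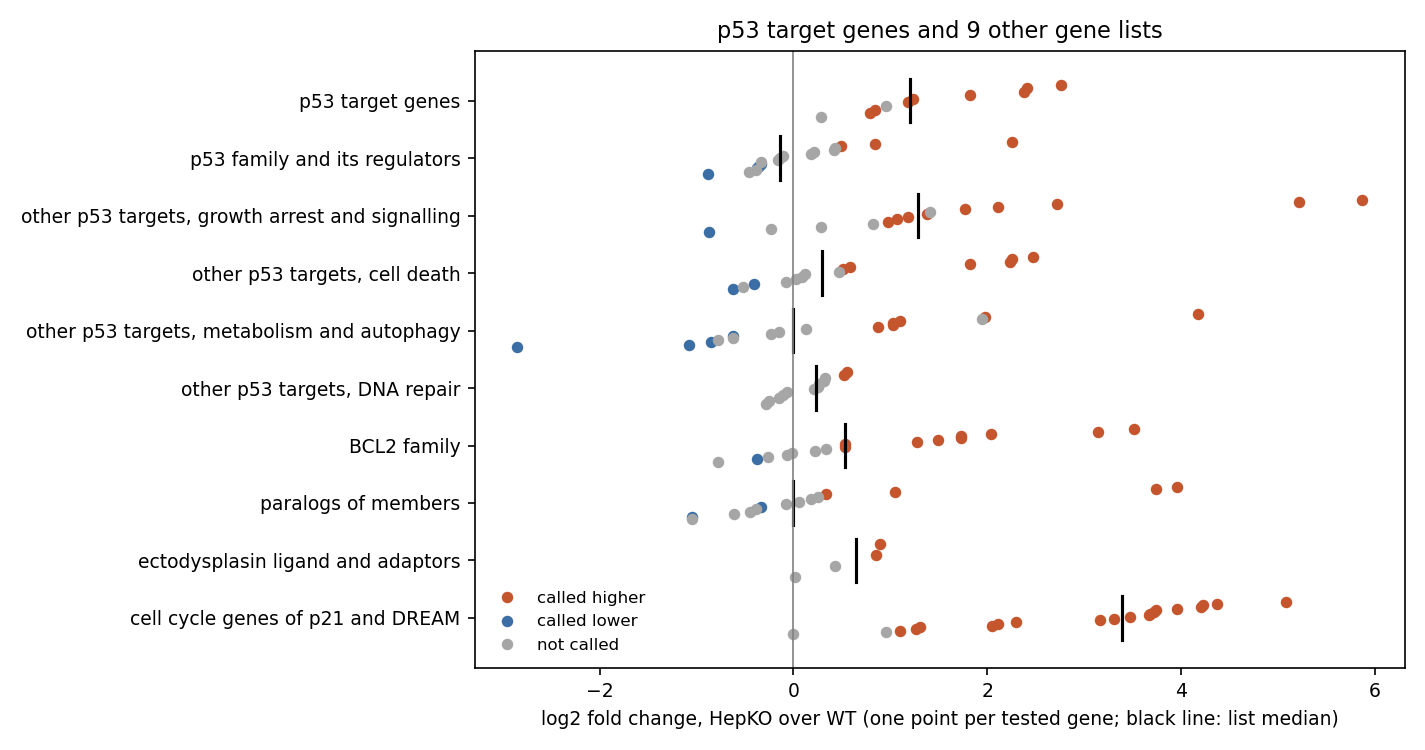
Log2 fold change of HepKO over WT (x axis) of every tested gene in the 10 p53 targets (top row) and 9 other lists, with orange for genes called higher, blue for genes called lower, grey for genes not called and a black line at each list's median. The top row has a median of 1.21 and no blue point, while the rows of regulators and of metabolism have medians near 0 and points on both sides.

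Relatives of the 10 genes were set beside the same shares, 19.5% of all tested genes called higher and 18.7% lower. In the BCL2 family outside Bax and Bbc3, 9 of 16 tested genes rose and 1, Bcl2l13, fell (median 0.53). The sign of Bcl2l13 turned under library totals, where the median of all tested genes was 0.52. The proapoptotic genes Bcl2l11 (BIM; log2 fold change 1.28 ± 0.22 SE, FDR 0.00305) and Bak1 (0.53 ± 0.12 SE, FDR 0.01003) rose, and so did the antiapoptotic gene Bcl2, from 2.18 ± 1.19 to 7.25 ± 0.954 CPM (FDR 0.00744). The count of 9 was 5 without WT replicate 3 or HepKO replicate 3, and that of 1 fall was 0 without WT replicate 2 or 3. The list holds 3 near-identical Bcl2a1 genes whose reads the counting could split.

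Among paralogs of the 10 genes, 4 of 14 rose (Ccng2, Plk1, Phlda2 and Zmat2) and 2 fell (Zmat1 and Mdm4), against 19.5% and 18.7% of all tested genes. The list median was -0.01, and 0.50 under library totals, near the medians of all tested genes (0.01 and 0.52). Ccng2, the relative of Ccng1, had 19.3, 18.8 and 19.8 CPM in WT and 42.5, 37.9 and 39.8 CPM in HepKO (log2 fold change 1.05 ± 0.09 SE, FDR 2.27e-04). Zmat1 fell where Zmat3 rose (log2 fold change -1.04 ± 0.19 SE, FDR 0.00412). Plk1, the mitotic relative of Plk2, rose from 0.356 ± 0.383 to 4.89 ± 1.496 CPM (log2 fold change 3.74 ± 0.79 SE, FDR 0.00762; 4.90 without WT replicate 3 and 4.81 with limma-voom). Cdkn1b, which encodes the p21 relative p27, was not called (log2 fold change -0.07 ± 0.17 SE, FDR 0.776). The count of 2 falls was 1 without WT replicate 2, WT replicate 3 or HepKO replicate 3, and 4 with no filter on low counts.

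The ligand of Eda2r was also higher in the full set of libraries. Eda had 3.89, 5.54 and 4.596 CPM in WT and 10.2, 6.13 and 9.10 CPM in HepKO (log2 fold change 0.85 ± 0.24 SE, FDR 0.0243), and the counts do not separate its A1 and A2 forms. Its call ended with a replicate block, without WT replicate 1 or 3 and without HepKO replicate 1 or 3. The adjusted p was then 0.0705 to 0.0765. In its list of 4 tested genes 2 were higher and 0 lower (median 0.64), against 19.5% and 18.7% of all tested genes. The count of 2 was 1 in each fit where Eda lost its call. The adaptor gene Traf3 rose (log2 fold change 0.89 ± 0.15 SE, FDR 0.00290), Traf6 averaged 24.8 ± 1.43 CPM in WT against 25.0 ± 2.21 CPM (SD, n = 3 each), and the receptor gene Edar was too low to test.

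Cell cycle genes that p21 is known to keep down through the DREAM repressor complex were higher, not lower, alongside Cdkn1a. Of 20 tested, 18 rose and 0 fell (median 3.39), where 19.5% of all tested genes rose and 18.7% fell. Without HepKO replicate 1, 16 rose (median 2.90), where 16.3% of all tested genes did. Ccnb1, cyclin B1, rose from 0.314 ± 0.0816 to 5.80 ± 2.57 CPM (FDR 4.40e-04) and Ccna2, cyclin A2, from 0.749 ± 0.163 to 9.95 ± 5.12 CPM (FDR 5.21e-04; SD, n = 3 each). Mki67, a marker of dividing cells, had 1.08, 2.65 and 2.93 CPM in WT and 40.4, 24.5 and 20.8 CPM in HepKO (log2 fold change 3.67 ± 0.39 SE, FDR 4.68e-04). HepKO replicate 1 was the highest library for all 3 of these genes, and the other HepKO libraries also lay above every WT library. Bulk RNA does not show whether Cdkn1a and Mki67 were raised in the same cells.

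Markers of several other cell types moved with the same contrast, where 19.5% of all tested genes were called higher and 18.7% lower. The summed level of 8 hepatocyte markers was 106942 to 123982 CPM in WT and 40212 to 48562 CPM in HepKO, and 8 of 8 fell, so the tissue's defining markers were present in all libraries and lower in HepKO. The summed level was 101 to 205 CPM in WT and 282 to 482 CPM in HepKO for macrophage markers (6 of 7 tested rose), 44.8 to 62.1 and 148 to 565 CPM for cholangiocyte markers (4 of 7), and 217 to 315 and 507 to 580 CPM for stellate cell markers (3 of 8). It was 148 to 186 and 163 to 211 CPM for endothelial markers (1 of 8 rose), 1.73 to 4.68 and 6.91 to 21.2 CPM for neutrophil markers (3 of 3), 2.13 to 5.60 and 7.58 to 11.003 CPM for T or NK cell markers (2 of 8), and 2.84 to 4.04 and 4.26 to 11.04 CPM for B cell markers (1 of 6). The 6 markers of dividing cells, all in the cell cycle list above, summed to 3.85 to 8.90 CPM in WT and 60.2 to 109 CPM in HepKO, and erythrocyte markers to 189 to 274 and 101 to 132 CPM (3 of 5 fell). The counts of endothelial, B cell and T or NK cell markers that rose were near the share of 19.5%. The endothelial sums overlapped between the groups. Spp1 made up most of the cholangiocyte sum, with 134, 515 and 201 CPM in HepKO replicates 1 to 3. Krt19, Krt7 and Cldn7 were not called (FDR 0.236, 0.598 and 0.189). Only 2 markers were at 0 counts in all WT libraries, 1 of macrophages and 1 of neutrophils, and 0 markers were so in HepKO. In bulk tissue fewer cells of a type and less RNA per cell cannot be told apart, and the part of these shifts in the rise of the p53 targets was not tested.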

How the data were processed

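The authors deposited raw read counts per gene, with no normalization. Per the submitters' processing notes, the tools were STAR 2.7.11a, Subread 2.0.0, featureCounts, bcl2fastq and edgeR 3.40.2, and the build was mm10. Which annotation was counted, and whether by strand, is not given in the sources used here. Overlapping and antisense genes could thus not be told apart. Symbols, positions and exon lengths come from GENCODE M21 (GRCm38), which matched 55480 of 56350 IDs without version. Counts were filtered with filterByExpr, scaled by TMM and tested in R 4.3.3 with edgeR 4.0.16 (quasi-likelihood test, 2-sided, no covariate), at an FDR under 0.05. The SE is the size of the log2 fold change divided by the root of F, and log2 CPM profiles add 0.5 counts. Library totals (33145684 to 48951937) gave at least 19 counts of each of the 10 genes in every library. The test was tried on simulated counts. The 10 genes and the lists were chosen with earlier results of these data known. All 10 genes are named, with the 3 tested genes of smallest p in each other list (at least 1 CPM in a group) and the 5 genes most like Cdkn1a. Other genes named were chosen after their values were seen. DESeq2 1.42.0, limma-voom (limma 3.58.1), other scalings and filters, a replicate block, an FDR of 0.01 and leaving out each library were alternatives.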

Additional observations from a re-analysis of the deposited data

How the results depend on the processing

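For the 10 p53 targets, 0 of 130 refitted values lost a call, 6 gained one (Bbc3 in 5 fits, Trp53inp1 in 1) and 1 turned. The log2 fold change of Trp53inp1 was -0.013 without WT replicate 1 and 0.839 without WT replicate 3, the lowest and highest of its fits. The cause was not tested. The number of targets called higher was 8 or 9 in every fit, with 8 at an FDR under 0.01, and 0 were lower throughout. Over all tested genes, library totals gave 7442 higher and 937 lower in place of 3125 and 3006, and an FDR under 0.01 gave 1751 and 1693. Over the other 9 lists, each gene once, 58 were higher and 13 lower, library totals gave 81 and 3, and leaving out single libraries gave 45 to 55 higher and 8 to 15 lower. A replicate block gave 8 targets higher. The deviations of same-numbered libraries correlated at -0.115, -0.0551 and -0.00513, and those of differently numbered libraries at -0.11 to 0.163. With 3 libraries a group, these correlations cannot decide whether the libraries were paired. Counting error limits most the genes with few WT counts (Eda2r, 19 to 105, and Phlda3, 20 to 47).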
